A study of Mus musculus with 8 samples.

Results

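The genes described here encode the initiation and elongation factors of cytosolic translation, together with kinases, methyltransferases and binding proteins named after them. They were chosen by name. All protein-coding genes of GENCODE M21 on mm10 chromosomes 1 to 19 whose symbol begins with Eif1 to Eif6, Eef1 or Eef2 were taken, which gave 65 of 20722 genes. The gene body was the longest protein-coding transcript, and these bodies ran from 1858 bases (Eif4ebp3) to 215487 bases (Eif4g3).

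The data were H3K36me3 ChIP–seq peaks of i4F mouse embryonic fibroblasts (MEFs), prepared from E13.5 embryos and carrying a doxycycline-inducible cassette of OCT4, SOX2, KLF4 and MYC (OSKM). In all 4 conditions the cells carried this cassette and were kept for 72 h in iPSC medium. MEF cells received neither agent, MEF B12 cells received 2 µM vitamin B12, OSKM cells received doxycycline, and OSKM B12 cells received doxycycline and 2 µM vitamin B12. The labels give doxycycline as 1 µg/mL, while the methods of the study write 1 mg/ml. All cells came from 1 embryo, labelled Clone 1, which the study selected for its high reprogramming efficiency. The immunoprecipitation is labelled H3K36m3, while the extraction protocol writes the antibody as H3K3me3, and it is taken here as H3K36me3. For each condition 1 H3K36me3 library and its input were sequenced. The differences below thus have no replicate check, and p-values are not given.

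Translation initiation begins when eIF2 brings the initiator tRNA to the small ribosomal subunit and eIF4F, a complex of a cap-binding protein, a helicase and a scaffold, recruits the mRNA. eIF3 bridges mRNA and ribosome, eIF5 and eIF5B act when the start codon is reached, and eEF1A and eEF2 then drive the elongation cycle. H3K36me3 is written by SETD2 along the bodies of transcribed genes, with little of it at promoters, and housekeeping genes such as these usually carry it. The comparisons ask how the mark over these genes differed when OSKM was induced and when vitamin B12 was added.

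Between 29046913 and 33399267 H3K36me3 tags were left in each library, and between 65474 and 69434 broad peaks were called. The OSKM library stood apart. Only 3.31% of its peaks had a −log10 q of at least 5, against 15% to 19.1% in the other 3 lists, although it held the most tags. Of 12 fibroblast marker genes, 10 or 11 were covered by peaks over at least 10% of their body in each list, Twist1 being at 0 throughout and S100a4 at 0 in 3 lists. Of 19 markers of epithelial, pluripotent, endothelial, blood, neural and muscle cells, Cd68 and Tubb3 passed that level in any list, with Cd68 lying next to Eif4a1. Epithelial Cdh1 and Epcam and pluripotent Nanog and Pou5f1 were at 0 in all 4 lists.

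Nearly all of these genes carried the mark. A gene was counted as marked when peaks covered at least 10% of its body on average over the 4 lists, and 60 of the 65 (92.3%) passed, against 8966 of all 20722 genes (43.3%). The median share of the body in peaks over the 60 marked genes was 69.1% in MEF and 71.1% in MEF B12, against 50.6% in OSKM and 73.6% in OSKM B12. Over all marked genes it was 51.1%, 54.8%, 31.7% and 55.4% in the same order. The translation factor genes were thus more widely covered than the typical marked gene in each of the lists, and OSKM had the lowest median in both sets. At least 50% of the body lay in peaks for 45 of the 65 genes in MEF and 46 in MEF B12, but for 30 in OSKM and 48 in OSKM B12.

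**Figure D1:**
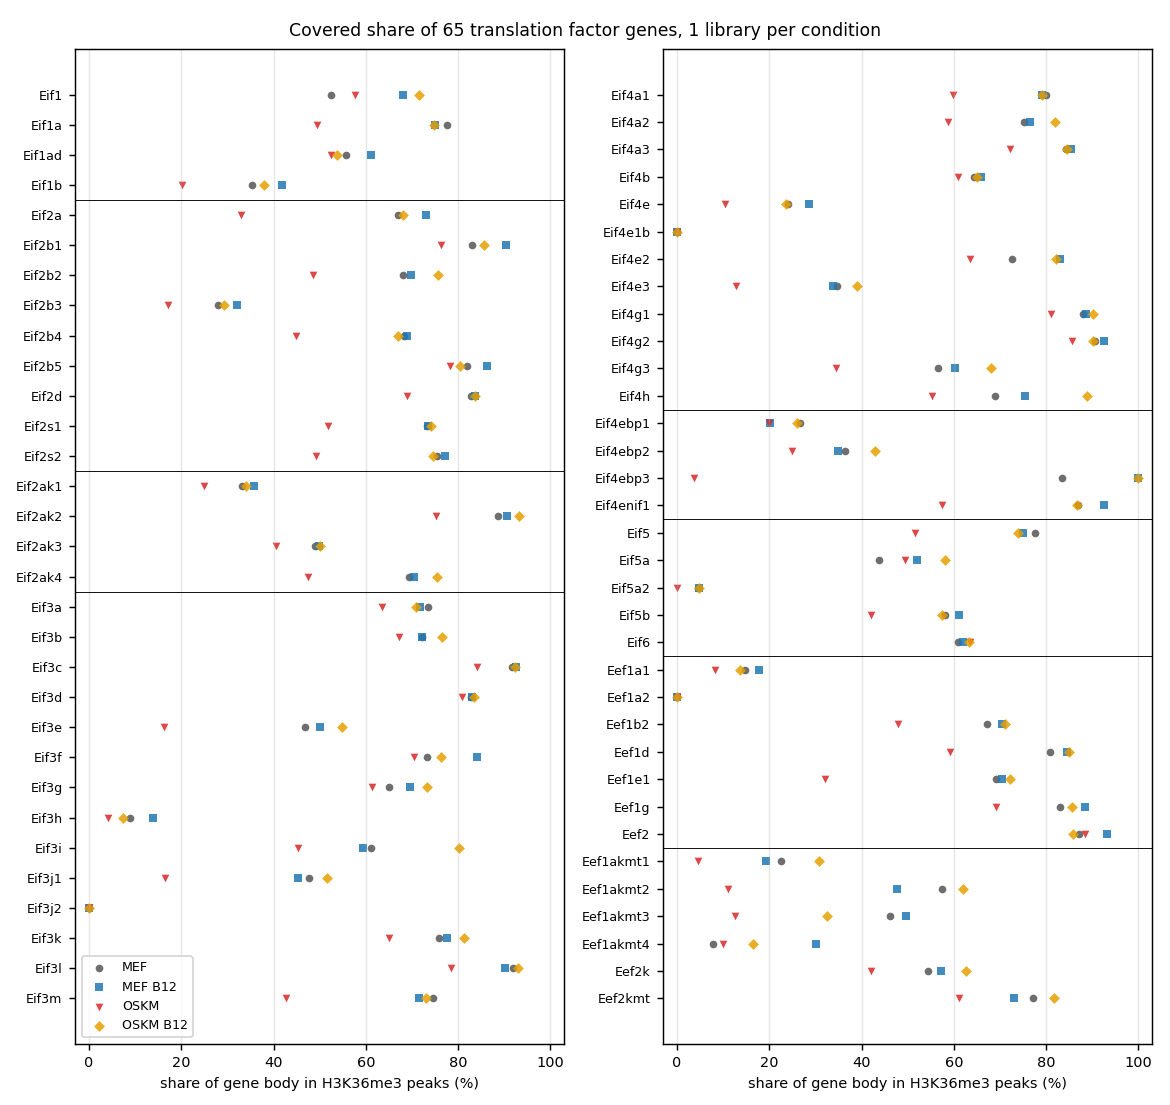
Share of the gene body in H3K36me3 peaks (%, x axis) for the 65 translation factor genes, ordered by role, with 1 point per condition and 1 library per point. The OSKM triangle lies left of the MEF circle for most genes and right of it for Eif1, Eif5a, Eif6, Eef2 and Eef1akmt4.

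The amount of mark was measured as density, the pileup of fragments in peaks per 1000000 tags and per base of gene body. The median density of the 60 marked genes was 0.467 in MEF and 0.537 in MEF B12, against 0.263 in OSKM and 0.568 in OSKM B12. All marked genes had medians of 0.295, 0.353, 0.148 and 0.369. Ranked among all marked genes of the same list, the translation factor genes had a median percentile of 76.0 and 75.1 in MEF and MEF B12 and 74.3 and 74.7 in OSKM and OSKM B12. Their rank was therefore nearly the same in the 4 lists while their density was not, and 45 or 46 of the 60 lay above the median of all marked genes in each list. In a bulk sample, fewer marked cells and less mark per cell cannot be told apart.

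The densest body was that of Eef2, which encodes the elongation factor that translocates the ribosome along the mRNA. Its density was 1.05 in MEF and 1.39 in MEF B12, against 0.711 in OSKM and 1.40 in OSKM B12. In each list 1 peak ran over almost the whole gene, from between 403 and 825 bases after the start site to past its end, and OSKM was the lowest in density but not in covered share. A contrasting gene was Eif3e, which encodes a subunit of the scaffold complex eIF3. Of its body, peaks covered 46.9% in MEF and 50.03% in MEF B12, against 16.2% in OSKM and 54.8% in OSKM B12. To show what lay under these peaks, 120 bases of each gene are printed 5′ to 3′ on the coding strand from GRCm38. The Eef2 stretch, chr10:81179841-81179960 on the plus strand, was in a peak in all 4 lists, and its capitals mark 79 coding bases of an exon. The Eif3e stretch, chr15:43251115-43251234 on the minus strand, is intronic and lay in a run of 2138 bases (chr15:43250106-43252243) that was in peaks in every list but OSKM.
Eef2: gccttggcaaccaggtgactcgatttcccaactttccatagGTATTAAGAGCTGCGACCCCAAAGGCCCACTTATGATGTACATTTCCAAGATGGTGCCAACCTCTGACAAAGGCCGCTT
Eif3e: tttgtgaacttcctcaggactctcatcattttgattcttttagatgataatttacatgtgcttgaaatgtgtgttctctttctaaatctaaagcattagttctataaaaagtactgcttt

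**Figure D2:**
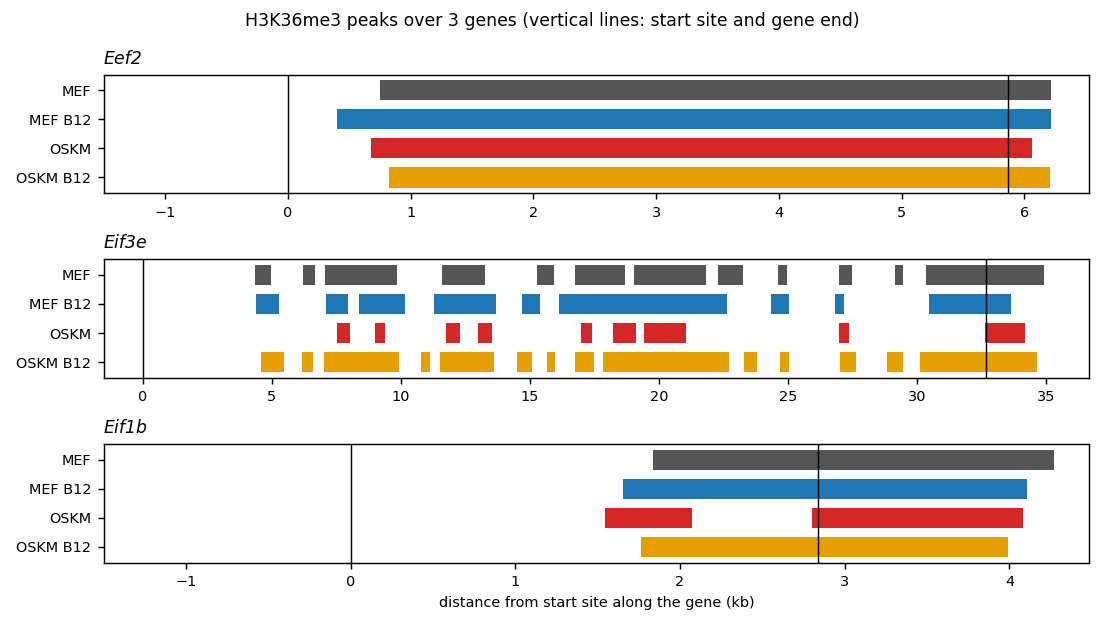
H3K36me3 peaks of the 4 lists over Eef2, Eif3e and Eif1b, by distance from the start site along the gene (kb), with vertical lines at the start site and the gene end and 1 library per row. Eef2 keeps 1 peak of similar extent in all lists, while the longest Eif3e peak and the longest Eif1b peak are shorter in OSKM than in the other 3 lists.

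In OSKM, the mark was lower over nearly all of these genes. Density was lower than in MEF in 59 of the 60 marked genes, the exception being Eef1akmt4. The same held for 8822 of all 8966 marked genes, so this count does not set the group apart. The median log2 change, taken as log2(density + 0.05), was −0.68, and that of all marked genes was −0.71. As a plain ratio the median density in OSKM was 0.585 of that in MEF. It was 0.536 over the 8707 marked genes with density above 0 in both lists. A gene was called when it passed 2-fold on the log2(density + 0.05) scale, and 13 of the 60 (21.7%) were called lower in OSKM, against 19.4% of all marked genes. By plain ratio, 16 of the 60 (26.7%) were at 0.5 of MEF or less, against 44.1% of all marked genes. The share called was thus near the background on the log2 scale and below it by plain ratio, a difference that goes with the pseudocount, which shrinks the changes of low-density genes. When each density was divided by the median of all marked genes in its list, which takes the common change out of every gene, the medians were 0.20 for the translation factor genes and 0.06 for all marked genes. With the pseudocount kept, this scaling shrinks dense genes less. The plain ratios hold no pseudocount and were also higher here, at 0.585 against 0.536. With the stronger peaks alone (−log10 q of at least 5), the medians were −2.20 and −1.21, and 39 of the 60 genes were called lower, against 53.7% of all marked genes. The median covered share was then 0 in OSKM in both sets, and in MEF 58.4% here against 25.5% over all marked genes. Where a gene is at 0 in OSKM, its change depends only on its MEF density and the pseudocount. How the translation factor genes stood to the other marked genes thus depended on the measure, and the part of the weaker OSKM library in the fall was not tested.

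With vitamin B12 in OSKM cells, density was higher in all 60 marked genes, and in 8937 of all 8966 marked genes. The median log2 change of OSKM B12 against OSKM was 0.96, against 0.99 for all marked genes. By plain ratio the medians were 2.14 and 2.35, the latter over the 8722 marked genes with density above 0 in both lists. On the log2 scale 25 of the 60 (41.7%) were called higher, against 48.3% of all marked genes. After division by the median of all marked genes, which takes out the common change, the medians were −0.20 for the translation factor genes and −0.05 for all marked genes. With the stronger peaks alone they were 2.53 and 1.94, with 47 of the 60 called higher, against 69.8% of all marked genes. Here too the median covered share in OSKM was 0 in both sets. This comparison and the one of OSKM with MEF share the OSKM library, and a value that was low in it enters both.

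In cells without doxycycline, vitamin B12 went with a smaller difference. Density was higher in MEF B12 than in MEF in 58 of the 60 genes, against 8238 of all 8966 marked genes. The median log2 change was 0.23, and 0.21 over all marked genes. Only Eef1akmt4 was called higher (1 of 60), against 0.848% of all marked genes. After it came Eif1 (0.62), Eif3f (0.42), Eef2 (0.39) and Eif5a (0.38), of which all but Eif3f also had a larger covered share in OSKM than in MEF. The comparisons with MEF share the MEF library, so a value that was low in it raises each of them. Eef1akmt2 and Eif4ebp1 were lower in MEF B12, at −0.18 and −0.06, followed by Eef1akmt1 (0.01), Eif1a (0.03) and Eif4e3 (0.05). Compared with MEF, OSKM B12 was higher in 58 of the 60 genes, against 8267 of all 8966 marked genes. The median log2 change was 0.27 here and over all marked genes. None of the 60 was called, against 1.43% of all marked genes. Eef1akmt3 and Eif4e were the genes below MEF in OSKM B12, at −0.09 and −0.05. Divided by the median of all marked genes, the median change was 0.00 for MEF B12 against MEF and −0.02 for OSKM B12 against MEF.

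**Figure D3:**
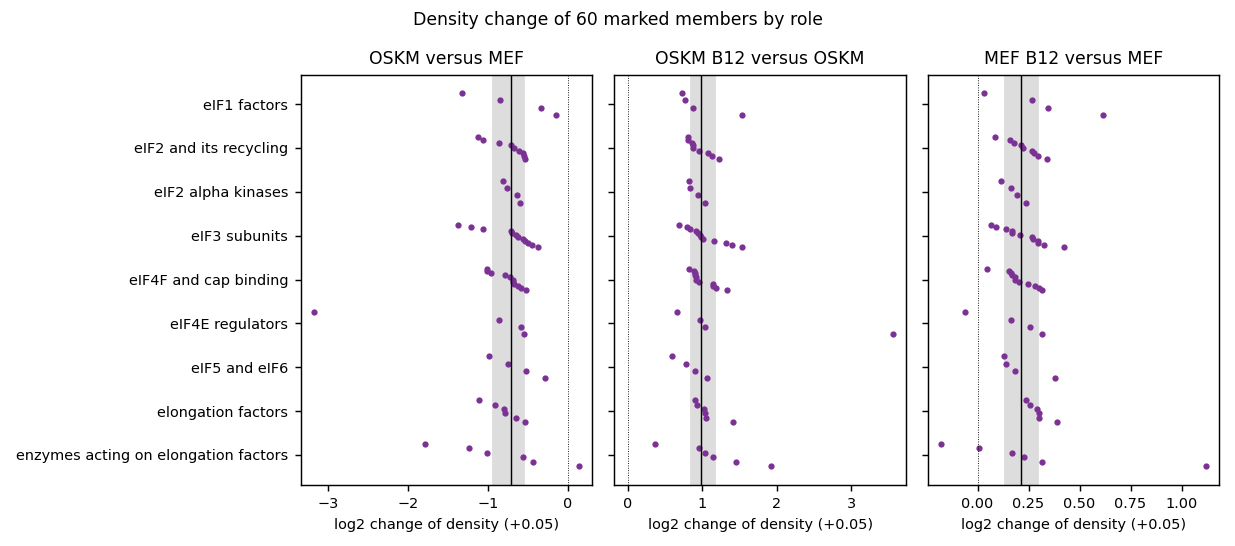
Log2 change of density (+0.05, x axis) of the 60 marked translation factor genes by role, with 1 point per gene and 1 library per condition. The black line is the median and the grey band the middle 50% of all 8966 marked genes, and points lie on both sides of it, with Eif4ebp3 and Eef1akmt2 farthest below it in OSKM against MEF.

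The eIF1 group holds small factors that help the ribosome select the start codon. All 4 genes were marked. Eif1 had densities of 0.332 and 0.535 in MEF and MEF B12 and 0.294 and 0.536 in OSKM and OSKM B12. OSKM was close to MEF, and both B12 lists were higher. Its log2 change in OSKM against MEF was −0.15, which is 0.56 above the median of all marked genes, and in MEF B12 against MEF it was 0.62. The plain ratio of OSKM to MEF was 0.886, with a 95% counting interval of 0.648 to 1.21 from 75 and 82 estimated fragments. Such intervals cover counting error only. In MEF the covered stretch was broken into 2 peaks, and the bases between them count as 0 in the MEF density. At bases in a peak in all 4 lists, the height ratio of OSKM to MEF was 0.790, against a median of 0.780 for marked genes with such bases. There the ratio of MEF B12 to MEF was 1.22.

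Eif1b, the paralog of Eif1, behaved differently. Its density was 0.262 in MEF and 0.346 in MEF B12, against 0.0746 in OSKM and 0.312 in OSKM B12. OSKM alone was low, with a log2 change of −1.32 from MEF, and OSKM B12 was 1.54 above OSKM. Its covered share went from 35.3% in MEF to 20.1% in OSKM and 38.0% in OSKM B12. In OSKM the peak that spans the gene end in the other lists was broken into 2 peaks. The ratio of OSKM to MEF was 0.285 (counting interval 0.182 to 0.447). Only fragments in called peaks enter it, so bases below the calling threshold in OSKM count as 0, which the interval does not cover. The difference between the paralogs was not tested over replicates. Eif1a, which encodes eIF1A, had a log2 change of −0.85 in OSKM and of 0.03 in MEF B12 against MEF. Eif1ad, a gene of related sequence, changed by −0.34 in OSKM against MEF and by 0.73 in OSKM B12 against OSKM.

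The eIF2 group carries the initiator tRNA (eIF2), recharges eIF2 with GTP (the eIF2B subunits) or acts beside it (Eif2a and Eif2d). All 9 genes were marked, with a median covered share of 73.3% in MEF and 73.4% in MEF B12, against 49.1% in OSKM and 74.7% in OSKM B12. Log2 changes in OSKM against MEF ran from −1.13 (Eif2a) to −0.53 (Eif2b5), and 2 were called lower, Eif2a and Eif2s2. Eif2a had densities of 0.382, 0.480, 0.148 and 0.415 in MEF, MEF B12, OSKM and OSKM B12. Eif2s2, for the beta subunit of eIF2, had 0.515, 0.580, 0.221 and 0.522 in the same order. Both were low in OSKM and similar in the other 3 lists, and Eif2s2 lies wholly inside the body of the gene a on the opposite strand. Eif2s1, for the alpha subunit that stress kinases phosphorylate, changed by −0.71 and 0.82 in the OSKM and OSKM B12 comparisons, close to the medians of all marked genes.

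Of the 5 subunits of eIF2B, Eif2b1 and Eif2b5 were the most densely marked and Eif2b3 the least. Eif2b1 had densities of 0.662 and 0.852 in MEF and MEF B12 and 0.433 and 0.835 in OSKM and OSKM B12. Eif2b5, for the catalytic subunit, had 0.665, 0.809, 0.443 and 0.813. Eif2b3, whose body is 67451 bases long, had 0.127, 0.157, 0.0661 and 0.161. The genes thus differed in level by several fold within a list although their products form 1 complex, while their log2 changes in OSKM against MEF stayed between −0.86 (Eif2b4) and −0.53.

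The 4 eIF2 alpha kinase genes stop general initiation under stress by phosphorylating eIF2. Eif2ak2 (PKR) was the densest of them, at 0.704 in MEF and 0.796 in MEF B12, against 0.381 in OSKM and 0.782 in OSKM B12. Eif2ak4 (GCN2), the sensor of amino acid shortage, had 0.402, 0.440, 0.218 and 0.502. Eif2ak3 (PERK), the sensor of endoplasmic reticulum stress, had 0.359, 0.433, 0.214 and 0.418. Eif2ak1 (HRI), the haem-regulated kinase, was the lowest in MEF, at 0.210, with 0.248, 0.122 and 0.256 in the other lists. All 4 were lowest in OSKM. None was called lower in OSKM, with log2 changes between −0.81 and −0.60. In OSKM B12 against OSKM only Eif2ak4 was called, at 1.04.

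The eIF3 complex is the largest of the initiation factors, and 12 of its 14 genes were marked. Their median covered share was 73.3% in MEF and 72.0% in MEF B12, against 64.3% in OSKM and 76.5% in OSKM B12, and their median density percentile was 86.6, 89.2, 89.5 and 88.8. Eif3d, whose product can itself bind mRNA caps, was the densest at 1.01, 1.22, 0.623 and 1.29 in MEF, MEF B12, OSKM and OSKM B12. Eif3c was next, at 0.875, 1.02, 0.515 and 1.06. In 9 of the 12 the log2 change in OSKM against MEF lay between −0.71 and −0.37. The other 3, Eif3e, Eif3j1 and Eif3m, were called lower.

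Eif3e had densities of 0.262 and 0.293 in MEF and MEF B12 and 0.0702 and 0.297 in OSKM and OSKM B12. Its log2 change was −1.37 in OSKM, 0.66 below the median of all marked genes, and 1.53 in OSKM B12 against OSKM. Counting error was small beside this, with an OSKM to MEF ratio of 0.268 (0.234 to 0.307). Bases below the calling threshold in OSKM again count as 0 in this ratio, which the interval does not cover. At bases in a peak in all 4 lists, the height ratio of OSKM to MEF was 0.713, against a median of 0.780 for marked genes with such bases. Eif3j1, for a loosely bound subunit, had 0.230, 0.249, 0.0717 and 0.271, and Eif3m had 0.479, 0.504, 0.205 and 0.518. OSKM was the low list for each of them and the other 3 lists lay near each other. Eif3f, for another subunit, showed the smallest changes of the complex, at −0.37 in OSKM against MEF and 0.69 in OSKM B12 against OSKM. Its densities were 0.560, 0.768, 0.424 and 0.715. Eif3i had the largest log2 change of all marked translation factor genes in OSKM B12 against MEF, at 0.78, with densities of 0.407, 0.523, 0.265 and 0.736.

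The 2 eIF3 genes that were not marked were Eif3h and Eif3j2. Eif3h, whose body of 78966 bases is the longest of the complex, was covered over 8.95% in MEF and 13.9% in MEF B12, against 4.12% in OSKM and 7.29% in OSKM B12, just under the threshold on average. Eif3j2, a gene with 1 exon on chromosome 18 and a close copy of Eif3j1, had no peak in any list.

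eIF4F and its helpers recruit the mRNA through its cap, and 11 of 12 genes were marked. The median covered share was 72.5% in MEF and 76.4% in MEF B12, against 59.8% in OSKM and 81.8% in OSKM B12. The scaffold genes Eif4g1 and Eif4g2 were among the densest of all marked genes. Eif4g1 had 0.910 and 1.05 in MEF and MEF B12 and 0.551 and 1.12 in OSKM and OSKM B12, and Eif4g2 had 0.910, 1.12, 0.534 and 1.03. Eif4g3, on a body of 215487 bases with 34 exons, was at 0.320, 0.370, 0.164 and 0.438. Its changes were nonetheless close to those of its paralogs in OSKM against MEF, at −0.79 against −0.68 and −0.72.

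The helicase genes had similar levels. Eif4a1 was at 0.626 in MEF and 0.718 in MEF B12, against 0.370 in OSKM and 0.732 in OSKM B12. Eif4a2 was at 0.653, 0.738, 0.299 and 0.722 and was called lower in OSKM, at −1.01. Eif4a3, whose product belongs to the exon junction complex rather than to eIF4F, was at 0.630, 0.716, 0.424 and 0.787, with a change of −0.52. The order of the 3 in OSKM differed from that in MEF, where they lay close together.

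The cap-binding genes differed most. Eif4e2, which encodes a repressive cap-binding protein, had 0.554 in MEF and 0.703 in MEF B12, against 0.342 in OSKM and 0.690 in OSKM B12. Eif4e, for the canonical cap-binding protein, had only 0.143, 0.179, 0.0492 and 0.136, and its first covered base lay at least 21541 bases after its start site in every list. Eif4e3 had 0.152, 0.159, 0.0505 and 0.202 and was called lower in OSKM, at −1.01. Eif4e1b, known for its expression in oocytes, had no peak. The helpers Eif4b and Eif4h changed by −0.68 and −0.59 in OSKM against MEF.

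**Figure D4:**
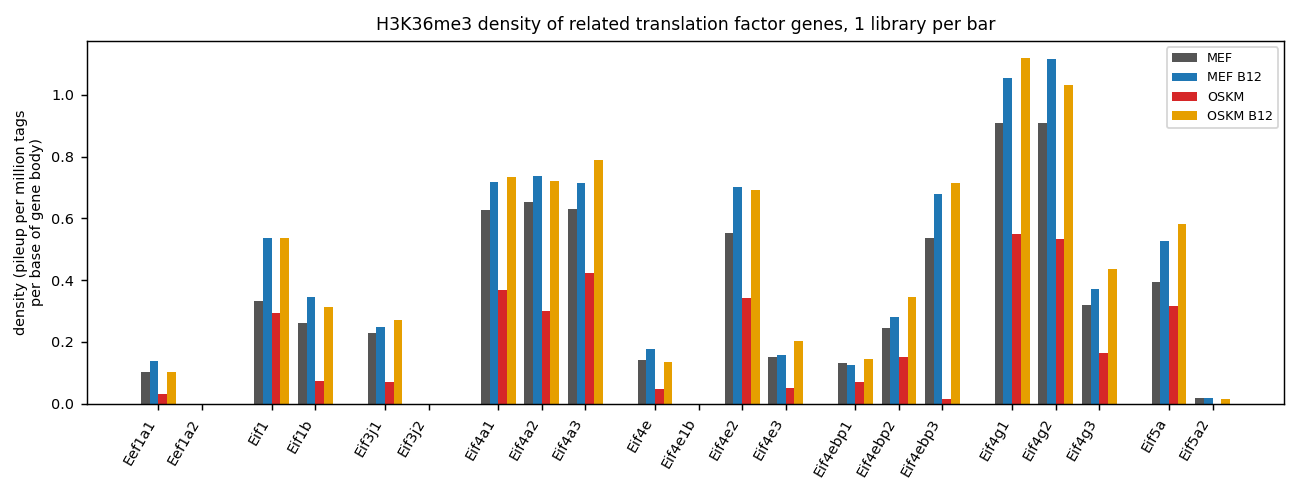
H3K36me3 density (pileup per 1000000 tags per base of gene body) of 8 families of related translation factor genes, with 1 bar per condition and 1 library per bar. In Eef1a, Eif3j, Eif4e and Eif5a, a member with bars stands beside a member with none or almost none. The 3 Eif4a genes have similar bars except in OSKM, where Eif4a2 is the lowest.

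The binding proteins of eIF4E block assembly of eIF4F when mTOR is inactive. Eif4ebp1 was sparsely marked, at 0.132 and 0.125 in MEF and MEF B12 and 0.0719 and 0.143 in OSKM and OSKM B12, and Eif4ebp2 was at 0.244, 0.279, 0.152 and 0.346. Eif4ebp3 was at 0.536, 0.679, 0.0150 and 0.713. It was widely covered in 3 lists, at 83.4% in MEF and 100% in both B12 lists, and over 3.71% in OSKM. Its log2 changes were the largest of the group, at −3.17 in OSKM against MEF and 3.55 in OSKM B12 against OSKM. The OSKM value rests on 3 estimated fragments, and the ratio to MEF was 0.0280 with a counting interval of 0.00928 to 0.0846. The body of 1858 bases lies wholly inside another gene, AC115631.1, on the same strand, so its signal cannot be told apart from that of the longer gene. Eif4enif1, whose product carries eIF4E into the nucleus, had 0.544, 0.661, 0.277 and 0.624.

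eIF5 and eIF5B act at the start codon, eIF5A helps the ribosome through difficult peptide bonds, and eIF6 keeps the large subunit from joining too early. Eif5 had densities of 0.626 in MEF and 0.690 in MEF B12, against 0.291 in OSKM and 0.666 in OSKM B12, and Eif5b had 0.389, 0.448, 0.212 and 0.442. Both were lowest in OSKM, with log2 changes of −0.99 and −0.74, and neither was called. Eif5a had 0.394, 0.527, 0.316 and 0.580, a smaller difference between OSKM and MEF (−0.28). Eif6 had 0.459, 0.511, 0.303 and 0.486, with the second smallest change in OSKM B12 against OSKM, at 0.60. Eif5a2, the paralog of Eif5a with expression in few tissues, was not marked, with 4.63% of its body in peaks in MEF and 4.84% in MEF B12, against 0 in OSKM and 4.78% in OSKM B12.

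Among the elongation factor genes, 6 of 7 were marked, Eef1a2, the form of eEF1A used in neurons and muscle, having no peak. The subunits that recharge eEF1A were similar. Eef1b2 had densities of 0.394 in MEF and 0.497 in MEF B12, against 0.206 in OSKM and 0.481 in OSKM B12. Eef1d had 0.540, 0.655, 0.326 and 0.725, and Eef1g had 0.722, 0.896, 0.400 and 0.864. All 3 were lowest in OSKM, with log2 changes between −0.79 and −0.65, and were called higher in OSKM B12 than in OSKM, at 1.02 to 1.05. Eef1e1, a component of the aminoacyl-tRNA synthetase complex, was called lower in OSKM, at −1.10. Its densities were 0.406, 0.488, 0.162 and 0.515. Eef2 changed by −0.53 in OSKM against MEF and by 0.93 in OSKM B12 against OSKM.

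Eef1a1, which encodes the main tRNA carrier of elongation, looked sparsely marked by the rule used, with a covered share of 14.8% and 17.8% in MEF and MEF B12 and 8.18% and 13.7% in OSKM and OSKM B12. Its longest transcript of 9503 bases (chr9:78479649-78489151, minus strand) starts far upstream of the main one and ends before the 3′ end of that one. Over a shorter annotated transcript (3276 bases, chr9:78478449-78481724) the covered share was 79.5%, 88.3%, 37.9% and 76.4%, and the density was 0.557, 0.689, 0.148 and 0.579. OSKM was the lowest list and MEF B12 the highest for both transcripts. Over the longest transcript the log2 change in OSKM against MEF was −0.91, which was not called. No call was made on the shorter transcript, so the call depends on the body chosen by the rule. The gene also has many processed copies in the genome, and only reads with a unique alignment entered the peaks. A coding stretch of 75 bases, the length of a read, shows this. It lies at chr9:78479864-78479938 on the minus strand of GRCm38, is printed 5′ to 3′ in capitals, since all of it is coding, and occurs at 5 places in the genome.
Eef1a1: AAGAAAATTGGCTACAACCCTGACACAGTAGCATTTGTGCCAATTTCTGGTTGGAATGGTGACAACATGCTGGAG

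Of 451 such words that lie wholly in coding exons of the longest Eef1a1 transcript, 277 occur elsewhere. Over all exons, more than 20% of the 75-base words were repeated in 10 of the 65 genes, with 76.4% in Eif3j1, 69.9% in Eif4a1, 67.2% in Eif3j2, 56.6% in Eef1a1 and 49.1% in Eef1g, and 29 of the genes had none. For the whole body the median was 1.52%. Reads that fall wholly in such words could not enter the peaks in any of the lists.

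The enzymes acting on elongation factors had log2 changes in OSKM against MEF from −1.79 to 0.14. They include the kinase that inhibits eEF2 (Eef2k), a methyltransferase of eEF2 (Eef2kmt) and 4 lysine methyltransferases of eEF1A (Eef1akmt1 to Eef1akmt4). All 6 were marked, with a median covered share of 50.3% in MEF and 48.7% in MEF B12, against 11.8% in OSKM and 47.3% in OSKM B12. Eef2k had densities of 0.317, 0.380, 0.199 and 0.433 in MEF, MEF B12, OSKM and OSKM B12, and Eef2kmt had 0.475, 0.603, 0.338 and 0.746.

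The 3 genes Eef1akmt1, Eef1akmt2 and Eef1akmt3 were called lower in OSKM. Eef1akmt2 had densities of 0.270 in MEF and 0.233 in MEF B12, against 0.0427 in OSKM and 0.300 in OSKM B12. Its log2 changes were −1.79 in OSKM against MEF and 1.92 in OSKM B12 against OSKM, and the plain ratio of OSKM to MEF was 0.158 (0.131 to 0.191). Its covered share was 57.5% in MEF and 11.1% in OSKM. At bases in a peak in all 4 lists, the height ratio of OSKM to MEF was 0.802, against a median of 0.780 for marked genes with such bases. The body of Eef1akmt2 lies wholly inside the body of Fgfr2 on the same strand. Eef1akmt1 had 0.0848, 0.0854, 0.0171 and 0.134, with changes of −1.01 and 1.45. Eef1akmt3 had 0.199, 0.229, 0.0552 and 0.184, with changes of −1.24 and 1.15. OSKM was the lowest list in density for these 3 genes by a wide margin. Bases below the calling threshold count as 0 in these densities, which the interval does not cover.

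Eef1akmt4 went the other way. Of its body, peaks covered 7.75% and 30.1% in MEF and MEF B12 and 9.87% and 16.4% in OSKM and OSKM B12, and its density was 0.0314, 0.127, 0.0399 and 0.0662. It was the only marked gene of the set with a density in OSKM above that in MEF, at a log2 change of 0.14, and MEF B12 was 1.12 above MEF. The MEF and OSKM values rest on 26 and 34 estimated fragments, and the ratio of OSKM to MEF had a counting interval of 0.762 to 2.11, which includes equal levels. The interval of the MEF B12 to MEF ratio of 4.04 was 2.62 to 6.24. Its body lies over 99.8% of its length inside that of Gm49333 on the same strand.

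The mark lay in the later part of these genes. Each body was cut into 20 bins, and the mean share of the bin in peaks over the 60 genes was 3.42% in MEF and 2.96% in MEF B12, against 0.522% in OSKM and 3.47% in OSKM B12 in the bin at the start site. At bin 10 it was 73.9%, 73.9%, 59.9% and 78.8%, and at bin 20 it was 84.8%, 84.5%, 66.2% and 83.7%. OSKM was below the other 3 lists in all of these bins. Its mean share was 17.6% against 39.6% in MEF at bin 4, and over all marked genes the bin at the start site held 2.55% in OSKM and 3.43% in MEF. The last base of the body lay in a peak in 50 of the 60 genes in MEF and in 39 in OSKM (83.3% and 65%), against 66.0% and 44.1% of all marked genes. The start base did so in 2, 1, 0 and 1 genes in MEF, MEF B12, OSKM and OSKM B12.

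**Figure D5:**
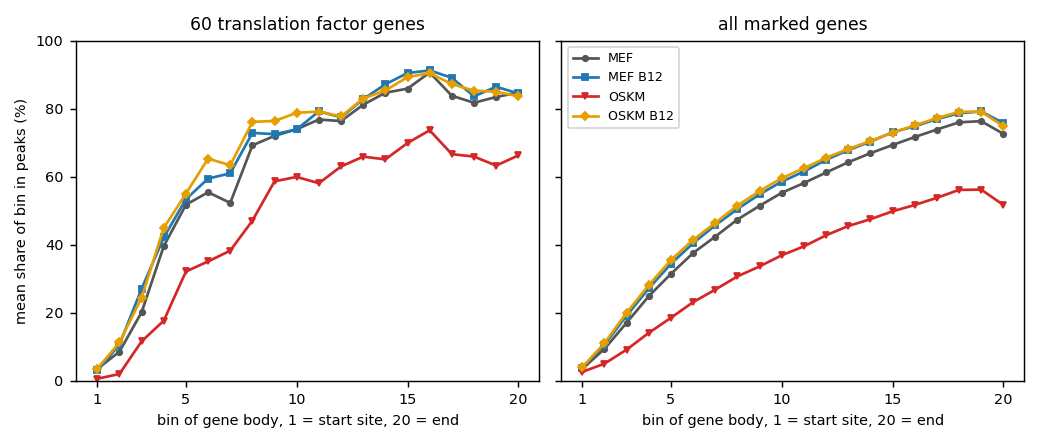
Mean share of each of 20 equal bins of the gene body in H3K36me3 peaks (%, y axis), from start site to end, for the 60 marked translation factor genes and for all 8966 marked genes, with 1 library per line. In both panels coverage climbs from near 0 at the start site, and the OSKM line runs below the other 3, reaching 66.2% in the last bin of the translation factor genes against 83.7% to 84.8%.

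The windows around the start sites were accordingly free of peaks. RefSeq start windows, 250 bases before to 50 after a start, were found for 49 of the 65 genes (64 windows, GRCm38.p6). None was touched by a peak in MEF, MEF B12 or OSKM and 1 in OSKM B12, against 2.27% to 2.78% of all 31396 windows. Searched on both strands, 6.25% of the 64 windows held TATAAA, 26.6% held CCAAT and 68.8% held GGGCGG, against 13.6%, 37.3% and 36% of all windows. As an example of an unmarked start beside the densest body, the Eef2 window (chr10:81176381-81176680, plus strand) is printed with its TATAAA in capitals. The window touched in OSKM B12 belongs to an inner start of Eef2k (chr7:120850939-120851238, plus strand), and holds none of the 3 motifs.
Eef2: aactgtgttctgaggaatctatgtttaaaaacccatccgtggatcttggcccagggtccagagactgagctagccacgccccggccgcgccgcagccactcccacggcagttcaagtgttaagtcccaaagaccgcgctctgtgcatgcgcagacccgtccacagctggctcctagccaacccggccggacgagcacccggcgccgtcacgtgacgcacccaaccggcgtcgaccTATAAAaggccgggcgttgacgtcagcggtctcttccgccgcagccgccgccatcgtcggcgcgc
Eef2k: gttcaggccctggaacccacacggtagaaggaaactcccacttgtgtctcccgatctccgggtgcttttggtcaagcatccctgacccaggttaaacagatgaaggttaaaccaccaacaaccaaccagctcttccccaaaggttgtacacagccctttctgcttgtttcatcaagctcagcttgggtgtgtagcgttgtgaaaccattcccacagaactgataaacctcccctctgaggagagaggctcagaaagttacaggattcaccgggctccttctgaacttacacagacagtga

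In OSKM the peaks over these genes were more and shorter. The 60 genes held 274 peaks in MEF and 251 in MEF B12, against 340 in OSKM and 255 in OSKM B12, with 3238, 3658, 1856 and 3720 covered bases per peak. A single peak per gene was seen in 22, 24, 13 and 27 genes. Eif2ak4 is an example, with 14 peaks in MEF and 15 in MEF B12, against 31 in OSKM and 13 in OSKM B12. In 31 of the 60 genes OSKM had more peaks than MEF and in 15 fewer, against 4084 and 2785 of all 8966 marked genes. Over all marked genes there were 55055 peaks in MEF and 58641 in OSKM. Their covered bases per peak were 2490 in MEF and 1466 in OSKM, so more and shorter peaks were seen there too.

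Covered share was higher in OSKM than in MEF in 5 of the 60 genes (8.33%), against 4.66% of all marked genes. These were Eif1 (52.4% to 57.7%), Eif5a (43.7% to 49.4%), Eif6 (61.0% to 63.6%), Eef2 (87.2% to 88.5%) and Eef1akmt4 (7.75% to 9.87%). All 5 have bodies under 10 kb, where 19 of the 60 genes lie, and 297 of 2287 marked genes of that length did the same. In the first 4 of them density was nonetheless lower in OSKM, so the peaks were as wide but less high.

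The height of the peaks was also compared at bases that lay in a peak in all 4 lists. This choice keeps bases where OSKM, the list with the fewest covered bases, passed the calling threshold, which brings its values nearer to the others. Each such base carries the mean pileup of the whole peak it lies in, so bases outside the shared set also enter the value. Weighted by the shared bases, the median scaled pileup of these peaks in the 60 genes was 0.701 in MEF and 0.804 in MEF B12. It was 0.509 in OSKM and 0.830 in OSKM B12. The median ratio of OSKM to MEF was 0.752, beside 0.585 over whole bodies, and that of OSKM B12 to OSKM was 1.58. The 8591 marked genes with such shared bases had 0.780 and 1.5. Eef1akmt3 and Eef1akmt1 had ratios of OSKM to MEF of 1.02 and 1.13 there, over only 546 and 80 shared bases. For Eif1b and Eif4a2 the ratios were 0.518 and 0.580.

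Other genes of translation showed changes of similar size. Of 70 cytosolic ribosomal protein genes 62 were marked, and 12 of these (19.4%) were called lower in OSKM than in MEF, with a median log2 change of −0.72. Of 37 aminoacyl-tRNA synthetase genes 33 were marked, 5 were called (15.2%) and the median was −0.68. Of 36 further genes of translation, such as release factors, poly(A)-binding proteins and mTOR pathway genes, 35 were marked, 4 were called (11.4%) and the median was −0.69. In OSKM B12 against OSKM, 24 of 62 ribosomal protein genes (38.7%), 17 of 33 synthetase genes (51.5%) and 14 of 35 further genes (40%) were called higher, against 48.3% of all marked genes, with medians of 0.91, 1.01 and 0.95. Ribosomal protein genes, with a median body of 3244 bases, mostly held 1 peak also in OSKM (51 of 62), while the translation factor genes, with a median body of 16886 bases, mostly held several. Among the further genes, the largest falls in OSKM were those of Mcts2 (−1.63), Impact (−1.43) and Dph2 (−1.43), and Pelo, a ribosome rescue factor, was level at 0.01.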

How the data were processed

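H3K36me3 ChIP–seq of 4 conditions was analysed from the broad peaks of 1 library each, called by the authors against that condition's input. Before deposition, the authors aligned 75-base reads to mm10 with bowtie 0.12.9, as named in the submitters' processing notes, kept unique alignments, removed duplicates and called peaks with MACS2 2.2.6 (q-values of 0.05 and 0.1). Pileup in the authors' files is a coverage signal, averaged over a peak. The deposited fold enrichment is a ratio to the local input, and the deposited p-values and q-values are given as −log10.

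From these, covered share and density (sum of pileup over covered bases, per 1000000 tags and base) were computed per gene body of GENCODE M21 with Python 3.11.15, numpy 2.4.6 and pandas 2.3.3. Log2 changes used a pseudocount of 0.05. Marked genes had a mean covered share of at least 10%. Fragments were estimated from pileup and fragment length, and 95% intervals of ratios cover counting error only. The interval arithmetic was tested on simulated data. A gene without a peak had no enrichment detectable in uniquely aligned reads at 29046913 to 33399267 tags. Repeated 75-base words were counted as exact matches in GRCm38. Members, lists and named genes were chosen with earlier results of these data known. Named were the 5 lowest and 5 highest changes of each comparison of OSKM with MEF, OSKM B12 with OSKM and MEF B12 with MEF, genes that were not marked, related families and the core factors. Alternatives were stricter peaks, equal peak numbers, other scalings and pseudocounts, another fold, and overlapping genes left out.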

Additional observations from a re-analysis of the deposited data

Results flagged for a closer look

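Eef1akmt2 and Eif4ebp1 stood out because vitamin B12 went with opposite directions in the 2 kinds of cells. Their log2 density changed by −0.179 and −0.0608 in MEF B12 against MEF and by 1.92 and 0.67 in OSKM B12 against OSKM. The plain ratio of MEF B12 to MEF was 0.862 for Eef1akmt2, with a counting interval of 0.774 to 0.960. For Eif4ebp1 it was 0.943 with an interval of 0.782 to 1.14, which includes no change. The height ratio of its peaks at bases in peaks in all 4 lists was 1.30, the other way. The difference was not tested, since each condition had 1 library.

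The genes of this kind on the sex chromosomes lay outside the set of autosomal genes but carried peaks. Eif2s3x, for the gamma subunit of eIF2, was covered over 73.8% and 78.4% in MEF and MEF B12 and 39.9% and 76.9% in OSKM and OSKM B12. Eif1ax, the X-linked gene for eIF1A, was covered over 45.0%, 52.8%, 19.3% and 53.7%. Eif2s3y, the Y-linked copy of Eif2s3x, was covered over 67.4%, 59.8%, 7.91% and 51.8%. Each was lowest in OSKM.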

How the results depend on the processing

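No paired analysis was possible because there was 1 library in each condition. Of 88 values recomputed, 57 stayed near the main value: counts within 1.5 times, and medians within the 95% interval that the ranks of the genes give. Dividing density by the median of all marked genes reversed the median log2 changes to 0.20 in OSKM against MEF, −0.20 in OSKM B12 against OSKM and −0.0237 in OSKM B12 against MEF, where all marked genes had 0.06, −0.05 and −0.01. It brought that of MEF B12 against MEF to 0.00488 and left 2 genes called lower in OSKM, 2 higher in OSKM B12 than in OSKM and 0 higher in MEF B12 (4.10%, 3.89% and 0.569% of all marked genes). With peaks of −log10 q of at least 5, the medians were −2.20 and 2.53 in OSKM against MEF and OSKM B12 against OSKM, 39 and 47 genes were called, 2 were called in OSKM B12 against MEF (53.7%, 69.8% and 13.7% of all marked genes, whose first 2 medians were −1.21 and 1.94), and the median covered share was 58.4% in MEF and 0 in OSKM. Without division by tags, the medians were 0.81 in OSKM B12 against OSKM with 13 called (29.3% of all), 0.0855 in MEF B12 against MEF and 0.15 in OSKM B12 against MEF. With a pseudocount of 0.2 the medians were −0.49, 0.72 and 0.17 in OSKM against MEF, OSKM B12 against OSKM and MEF B12 against MEF, with 1, 3 and 0 called (0.926%, 2.97% and 0.134% of all). At 1.5-fold the counts were 41, 59, 2 and 3, the last for OSKM B12 against MEF (69.3%, 95.7%, 3.71% and 7.60% of all). Without genes that overlap another body they were 6, 16 and 0 of 45 (19.9%, 49.0% and 0.682% of all). Leaving out the 3 genes wholly inside another body, an alternative chosen after seeing the data, left 10 genes called lower in OSKM and 22 higher in OSKM B12 than in OSKM. The causes were not tested. Peaks of the OSKM list were the weakest, so its uncovered bases may hold mark below the calling threshold, and 1 library per condition leaves the spread between cultures unknown.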
